A study of Mus musculus with 3 samples.

Results

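The genes described here make, recycle and break down the polyamines, and 9 of them were listed by name (Odc1, Srm, Sms, Amd1, Sat1, Oaz1, Oaz2, Azin1 and Smox). A gene was counted as measured when at least 1 probe set of the array, a group of short probes that together read a transcript, carried that gene's name and no other. This held for 7 of the 9 listed genes, read by 14 of the 45037 probe sets, within 18193 genes in all. Sms was read only by 3 probe sets that also name its pseudogene Sms-ps, so their values are given apart and counted nowhere. No probe set of the annotation used here names Amd1, which encodes S-adenosylmethionine decarboxylase, so its expression was not analysed here.

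Polyamines are small, positively charged molecules that bind nucleic acids, and proliferating cells need them for growth and protein synthesis. Ornithine decarboxylase (Odc1) turns ornithine into putrescine, to which spermidine synthase (Srm) and spermine synthase (Sms) add aminopropyl groups taken from decarboxylated S-adenosylmethionine. Antizymes (Oaz1 and Oaz2) bind ornithine decarboxylase and send it to the proteasome, and the antizyme inhibitor (Azin1), a relative of the enzyme without its activity, binds antizymes instead. Spermidine/spermine acetyltransferase (Sat1) and spermine oxidase (Smox) act in the opposite direction, Sat1 on spermidine and spermine and Smox on spermine. In mammals Odc1 is a well-known target gene of MYC.

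RNA came from NIH3T3 cells, an immortalized fibroblast line derived from NIH/Swiss mouse embryos, grown in D-MEM with 10% calf serum, and 1 Affymetrix array was hybridized for each of 3 conditions. The conditions were cells expressing mouse YAP in which the serine at position 112, the site that the LATS kinases of the Hippo pathway phosphorylate, is changed to alanine (mtYAP), cells expressing wild-type mouse YAP (YAP) and cells labelled untransduced (control). Both YAP lines were made by retroviral infection followed by puromycin selection and grown as the surviving population. The methods also mention an empty-vector virus and do not say whether the control on the array had received it, so viral infection, drug selection and YAP cannot be told apart in any difference from control. The study ran the arrays to examine growth under confluent conditions, in which it reports that both YAP lines kept growing. Growth state and YAP cannot be told apart here either. In addition, the description given for the control array names work with embryonic stem cells, against its other labels. With 1 array per condition no value has a replicate error and no test was made. A difference was called when it exceeded 1 on the log2 scale, which is 2-fold.

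The medians of all probe sets lay between 4.56 and 4.60 on the 3 arrays, and a level of 6 or more, taken as clearly measured, was reached by 33.0 to 34.0% of the probe sets. The 9 fibroblast markers checked all reached 6 on every array (7.07 to 12.76 in mtYAP, 8.59 to 13.09 in YAP and 9.69 to 13.34 in control). All 9 lay below control in mtYAP and 7 in YAP. More than 1 below control were 4 of them in mtYAP (Pdgfra, Pdgfrb, Thy1 and S100a4) and 1 in YAP (Pdgfrb). Among all genes 4.06% and 1.26% lay that low, and among genes reaching 6 on at least 1 array 8.22% and 2.30%. None of 18 markers of embryonic stem, epithelial, macrophage and endothelial cells reached 6 on any array, with highest levels of 5.22 in mtYAP, 4.99 in YAP and 4.73 in control. The part of the fibroblast markers in the results below was not tested. Yap1 itself had differences from control of −0.68 (mtYAP) and −0.51 (YAP), on probe sets that are not known to read the introduced coding sequence, so that this gene checks neither label.

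The 2 genes of the synthesis pathway that could be read, Odc1 and Srm, stood above control in both YAP lines and higher in mtYAP than in YAP, whereas the antizymes, the antizyme inhibitor and Sat1 stayed within 0.37 of control. Smox stood about 1 below control, through a probe set that stayed below a level of 6. In mtYAP, 2 of the 7 genes lay above 1 (Odc1 and Srm), where 3.77% of all genes did, and 1 lay below −1 (Smox), where 4.06% did. In YAP, 1 of the 7 lay above 1 (Odc1; 1.36% of all genes) and 1 below −1 (Smox; 1.26%). All 7 genes reached a level of 6 as the mean over their probe sets on at least 1 array. Among the 7129 genes that did so the shares above 1 were 7.66% in mtYAP and 2.72% in YAP, and those below −1 were 8.22% and 2.30%. Smox reached 6 only on the control array (6.21, beside 5.165 in mtYAP and 5.175 in YAP). It thus entered this set through the array where it was highest, and the shares below −1 are no independent measure for it. Set directly against YAP, mtYAP had 1 of the 7 genes above 1 (Odc1; 0.748% of all genes and 1.33% of those reaching 6) and none below −1 (1.42% and 3.06%). Both differences from control rest on the same control array. The median of the 7 genes was 0.13 in mtYAP, where all genes had a median of 0.02, and −0.21 in YAP, where all genes had a median within 0.01 of 0.

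**Figure D1:**
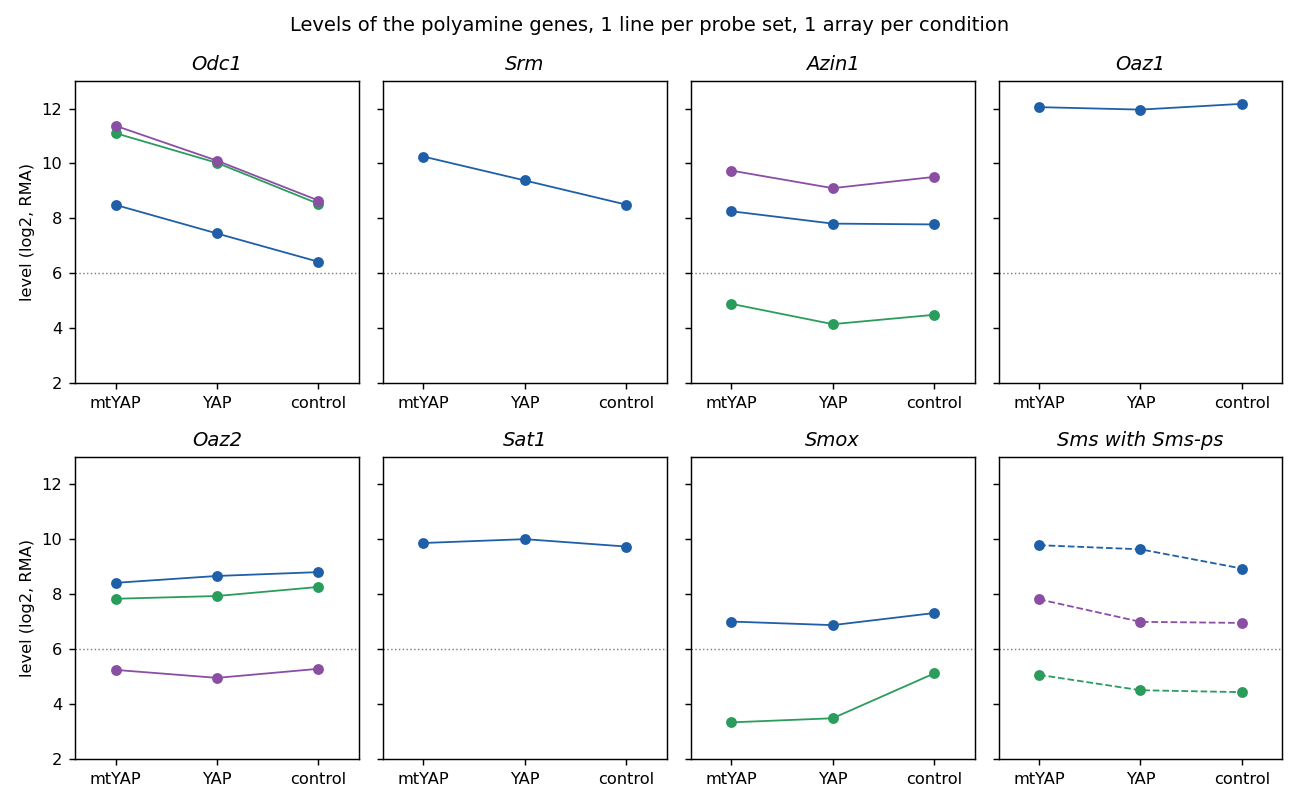
Level of each probe set (vertical axis, log2 units of the robust multiarray analysis) on the mtYAP, YAP and control arrays (horizontal axis), with 1 line per probe set, dashed where the probe set also names a pseudogene and with the level of 6 dotted. The 3 probe sets of Odc1 and that of Srm are highest in mtYAP and lowest in control, whereas Oaz1 stays between 11.96 and 12.17.

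Odc1, the first and rate-limiting enzyme of the pathway, was read by 3 probe sets. The first read 11.37 in mtYAP, 10.10 in YAP and 8.65 in control, the second 11.10, 10.02 and 8.53 and the third 8.49, 7.45 and 6.42 in the same order. Each of the 3 gave the same order of conditions, mtYAP highest and control lowest. Their mean stood 2.45 above control in mtYAP (5.48-fold), with 2.07 to 2.72 over the probe sets, and 1.32 above control in YAP (2.50-fold), with 1.03 to 1.49. Every probe set of Odc1 thus passed the 2-fold limit in both lines. Among all 18193 genes, Odc1 was number 56 from the top in mtYAP and number 112 in YAP. The direct difference of mtYAP from YAP, which does not involve the control array, was 1.13 (2.19-fold, 1.04 to 1.27 over probe sets), number 86 from the top.

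The stretch of genome at the start of Odc1 is shown because that gene carries the largest difference of the group, and that of Sms because it holds the only canonical E-box, the sequence that MYC and MAX bind, in the windows of the members. Both are from RefSeq on GRCm38.p6 and run 5′ to 3′ from 250 bases before to 50 bases after an annotated start of the gene. In Odc1 (chr12:17544623-17544922, plus strand) the capitals mark GC boxes, and in Sms (chrX:157492238-157492537, minus strand) they mark the E-box.
Odc1: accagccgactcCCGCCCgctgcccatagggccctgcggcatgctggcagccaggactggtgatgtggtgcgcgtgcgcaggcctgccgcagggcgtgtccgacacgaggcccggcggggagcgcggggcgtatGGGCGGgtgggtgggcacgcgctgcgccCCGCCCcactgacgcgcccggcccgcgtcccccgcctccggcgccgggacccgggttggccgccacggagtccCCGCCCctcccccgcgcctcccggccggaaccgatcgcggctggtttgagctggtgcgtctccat
Sms: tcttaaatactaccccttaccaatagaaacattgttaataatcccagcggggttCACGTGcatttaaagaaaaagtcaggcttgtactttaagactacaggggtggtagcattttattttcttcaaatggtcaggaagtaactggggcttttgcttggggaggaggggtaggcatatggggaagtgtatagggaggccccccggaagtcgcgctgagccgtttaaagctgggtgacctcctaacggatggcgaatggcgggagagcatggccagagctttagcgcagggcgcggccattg

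Of the 9 listed genes, 7 had such a window in the table, Sms with 2 of them, and Srm and Azin1 had none. The windows were searched on both strands for CACGTG (E-box), GGAATG (an element bound by TEAD, the DNA-binding partner of YAP), TGANTCA (an AP-1 element) and GGGCGG (the GC box bound by SP1, added after the windows had been seen), with overlapping matches of a motif counted separately. The Odc1 window held 4 GC boxes and none of the other 3 motifs, and 78.0% of its bases were G or C, a share that 1.94% of the 32851 windows reached. Smox, which stood below control, held 6 GC boxes, Oaz2 held 4, Sat1 2, Amd1 1 and Oaz1 none. Sms held 4, all in its window that is not shown, which has no E-box. GC boxes stood in 35.7% of all windows, E-boxes in 7.15%, the TEAD element in 14.7% and the AP-1 element in 7.81%. None of the 7 listed genes with a window held the TEAD or the AP-1 element in it. A match is a run of letters and not a binding site, and a missing match concerns only this window.

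Srm, which makes spermidine from putrescine, was read by 1 probe set at 10.25 in mtYAP, 9.38 in YAP and 8.50 in control. The order of the 3 arrays was that of Odc1. The difference from control was 1.75 in mtYAP (3.36-fold), number 181 of all genes from the top, and 0.88 in YAP (1.84-fold), number 347. In YAP, Srm therefore missed the 2-fold limit but passed a lower one of 0.72 on the log2 scale, which 2.95% of all genes passed in that line. The direct difference of mtYAP from YAP was 0.87 (1.83-fold), number 214 from the top, and 2.09% of all genes passed 0.72 in that comparison. The study describes no use of this limit there. A single probe set gives no second reading of this gene on the same arrays.

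Spermine synthase follows Srm in the pathway, and its transcript cannot be told apart here from that of the pseudogene Sms-ps. Of the 3 probe sets that name both, the brightest read 9.78 in mtYAP, 9.63 in YAP and 8.93 in control, with differences from control of 0.85 in mtYAP and 0.70 in YAP. The others read 7.81 in mtYAP, 6.99 in YAP and 6.95 in control, and 5.06, 4.50 and 4.43 in the same order. All 3 were thus above control in mtYAP, by 0.63 to 0.86 and short of the limit, but in YAP 1 of them stood at 0.70 and the others at 0.04 and 0.07.

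**Figure D2:**
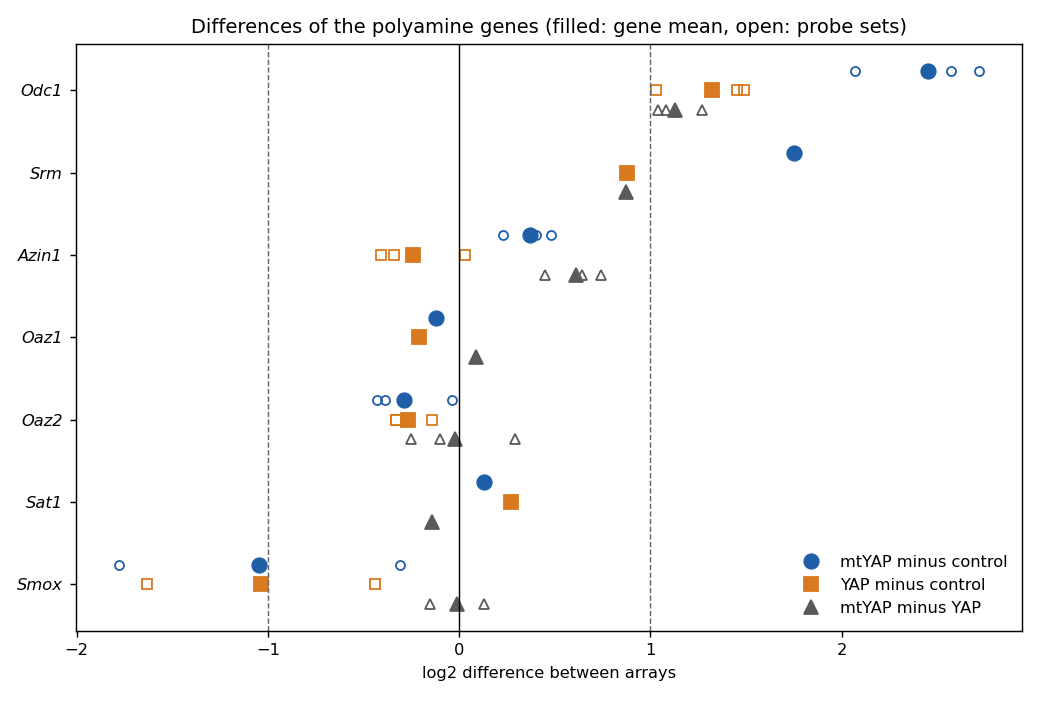
Log2 difference (horizontal axis) of mtYAP from control (blue circles), YAP from control (orange squares) and mtYAP from YAP (grey triangles) for each of the 7 genes, with filled symbols for the mean over probe sets, open symbols for single probe sets and dashed lines at 1 and −1. All open symbols of Odc1 lie above 1, whereas those of Smox lie far apart, at −1.78 and −0.31 in mtYAP.

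The genes that act on ornithine decarboxylase as a protein differed little from control. Oaz1, the main antizyme, was read at 12.05 in mtYAP, 11.96 in YAP and 12.17 in control, with differences from control of −0.12 in mtYAP and −0.21 in YAP. A further probe set that names Oaz1 with its pseudogene Oaz1-ps read 11.09 in mtYAP, 11.03 in YAP and 11.47 in control, likewise lowest in YAP. Both readings were below control in both lines and short of the limit. Oaz2, a second antizyme with 3 probe sets, averaged −0.29 in mtYAP (−0.43 to −0.04) and −0.27 in YAP (−0.33 to −0.14). The 2 clearly measured probe sets of Oaz2 read 8.41 and 7.83 in mtYAP, 8.66 and 7.93 in YAP and 8.80 and 8.26 in control, and the third stayed below 6.

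Azin1 was the member whose difference from control changed sign between the lines. Its brightest probe set read 9.74 in mtYAP, 9.10 in YAP and 9.51 in control, the middle one 8.26, 7.81 and 7.78 in the same order and the weakest, below 6 on every array, 4.89, 4.15 and 4.49. All 3 were highest in mtYAP, whereas YAP was below control on 2 of them and level with it on the third. Their mean stood 0.37 above control in mtYAP (0.23 to 0.48 over probe sets) and 0.24 below control in YAP (−0.41 to 0.03). Neither difference passed the limit, and by the median of the probe sets, which here is the middle one, YAP differed from control by 0.03. The direct difference of mtYAP from YAP was 0.61 (1.53-fold, 0.45 to 0.74), a value that 3.43% of all genes reached upward. A difference at least as far from 0 in either direction was seen for 8.17% of all genes. For the differences from control that share was 33.0% in mtYAP and 37.7% in YAP.

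Of the genes of polyamine turnover, Sat1, whose product acetylates spermidine and spermine ahead of export or oxidation, read 9.86 in mtYAP, 10.00 in YAP and 9.73 in control on its 1 probe set. It stood above control by 0.13 in mtYAP and 0.27 in YAP, and was thus highest in YAP. A difference at least as far from 0 was seen for 68.4% of all genes in mtYAP and for 32.9% in YAP.

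Smox, which oxidizes spermine to spermidine, passed the limit downward, but its 2 probe sets did not give the same size. The one above a level of 6 read 7.00 in mtYAP, 6.87 in YAP and 7.31 in control, and the other, below 6 throughout, 3.33 in mtYAP, 3.48 in YAP and 5.11 in control. Both placed the YAP lines below control. The mean difference was −1.05 in mtYAP and −1.04 in YAP (rank 694 and 211 of 18193 from the bottom), whereas the clearly measured probe set alone gave −0.31 in mtYAP and −0.44 in YAP, short of the limit. The call of Smox in both lines therefore rests on a probe set below a level of 6.

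**Figure D3:**
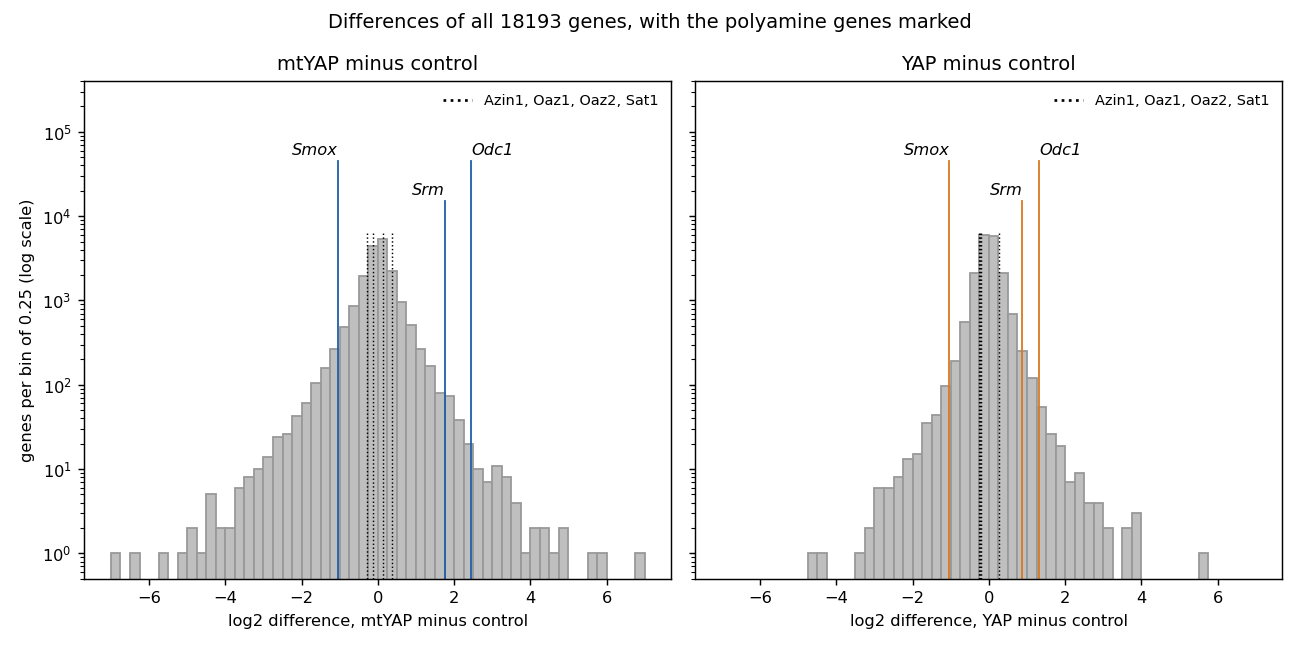
Number of genes (vertical axis, log scale) by log2 difference of mtYAP from control (left) and of YAP from control (right), over 18193 genes in bins of equal width, with the 7 genes as vertical lines. Odc1 (2.45 and 1.32) and Srm (1.75 and 0.88) lie on the upper slope in both panels, and Azin1, Oaz1, Oaz2 and Sat1 (dotted) lie near 0.

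The genes nearest to Odc1 were those with the most similar pair of differences from control among the 7129 genes that reached a level of 6, by straight-line distance on the log2 scale. They were Ect2, an exchange factor that drives cytokinesis, at 2.41 in mtYAP and 1.32 in YAP (distance 0.044), Dkc1, a pseudouridine synthase of ribosomal RNA, at 2.48 and 1.40 (0.077), Mtm1, the phosphatase myotubularin, at 2.37 and 1.36 (0.089), Sh2d6 at 2.50 and 1.41 (0.098) and Zwilch, a kinetochore protein, at 2.33 and 1.32 (0.12). For Srm they were Fam107b at 1.77 in mtYAP and 0.90 in YAP (0.024), Atad3a, an ATPase of the mitochondrial inner membrane, at 1.72 and 0.90 (0.035), Timm8a1, a chaperone of mitochondrial protein import, at 1.78 and 0.92 (0.047), Rhbdd1, a rhomboid protease, at 1.77 and 0.93 (0.054) and Ptx3, a secreted pentraxin, at 1.77 and 0.96 (0.078). Of these neighbours, Sh2d6 reached 6 only in mtYAP (6.54, beside 5.45 in YAP and 4.04 in control). Mtm1 and Zwilch were below 6 in control (5.83 and 5.43). Such genes entered the set through the arrays where they were highest. Likeness over 3 arrays that share a control is a description only. Myc, which encodes cMYC, read 10.71 in mtYAP, 9.66 in YAP and 7.75 in control, the same order of arrays as Odc1 and Srm, with differences of 2.96 and 1.91. A part of Myc in the differences of Odc1 and Srm was not tested. The mean of the 3 Mycn probe sets was 1.99 above control in mtYAP and 2.20 in YAP. A single probe set carried it, with differences of 6.29 and 6.85, while the others lay between −0.30 and −0.02.

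Around the core pathway, 35 further genes were listed by role and 30 of them were measured. Of these, 4 lay above 1 in mtYAP (13.3%, beside 3.77% of all genes), 1 lay above 1 in YAP (3.33%, beside 1.36%) and none lay below −1 in either. Their median was 0.13 in mtYAP and 0.08 in YAP. The remaining 5 were not analysed here. The mean over probe sets reached a level of 6 on at least 1 array for 18 of the 30. These 18 include 3 of the 4 genes called upward in mtYAP and the 1 called in YAP. Across the series, clearly measured genes were called upward more often than all genes, at 7.66% for mtYAP and 2.72% for YAP. The lists were also chosen with earlier results of these data known. The shares are therefore a description, and an excess in these lists was not tested.

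By list, 2 of 9 transport genes (Slc7a1 and Slc7a2), 1 of 5 genes of ornithine supply (Aldh18a1) and 1 of 4 genes of hypusine (Dhps) lay above 1 in mtYAP, with list medians of 0.02, −0.10 and 0.52. Slc7a1, the cationic amino acid transporter CAT-1 that imports arginine and ornithine, averaged 8.62 in mtYAP, 7.92 in YAP and 6.74 in control, 1.89 above control in mtYAP (3.70-fold, 1.19 to 2.28 over 3 probe sets) and 1.18 in YAP (2.27-fold, 0.58 to 1.57). It was the only gene of these lists that passed the limit in both lines. Slc7a2, a related transporter with 4 probe sets, averaged 1.82 above control in mtYAP and 0.59 in YAP at a mean level below 6, and its 1 probe set above a level of 6 read 8.56 in mtYAP, 7.53 in YAP and 6.63 in control. The direct difference of mtYAP from YAP was 1.23 for Slc7a2, the only gene of these lists above 1 in that comparison. Slc3a2, the heavy chain shared by several amino acid transporters and linked to polyamine export, differed from control by 0.88 in mtYAP and by 0.34 in YAP. For Slc18b1, a vesicular polyamine transporter, the differences were −0.67 in mtYAP and 0.01 in YAP.

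Aldh18a1, the enzyme that makes the pyrroline carboxylate from which ornithine and proline derive, averaged 8.85 in mtYAP, 8.37 in YAP and 7.47 in control. It stood at 1.38 in mtYAP (2.60-fold, 1.20 to 1.57 over 5 probe sets) and 0.90 in YAP (1.86-fold, 0.69 to 1.12). Oat, the aminotransferase that links ornithine with the same pyrroline carboxylate, was below control instead, with −0.59 in mtYAP and −0.26 in YAP. Arg1, the arginase that yields ornithine, read under 3 on every array. Of the 5 genes of ornithine supply, 2 reached a level of 6, Aldh18a1 above control and Oat below it. The others, Arg1 among them, were too low on every array for their differences to be read.

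Hypusine is an amino acid made from spermidine on the translation factor eIF5A. Dhps, which carries out the first step, averaged 8.74 in mtYAP, 8.15 in YAP and 7.67 in control, with both probe sets at 1.07 in mtYAP and at 0.45 and 0.51 in YAP. Eif5a, its substrate, was above control by 0.78 in mtYAP and by 0.38 in YAP. Eif5a2, a paralog of Eif5a whose mean over 2 probe sets stayed below a level of 6, differed from control by −0.39 in mtYAP and by −0.52 in YAP.

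None of the genes of the other lists passed the limit by the mean over probe sets. Adi1 and Enoph1, which recycle the methylthioadenosine that spermidine and spermine synthesis release, stood at 0.65 and 0.39 in mtYAP and at 0.09 and 0.10 in YAP. Mat2b, the regulatory subunit of methionine adenosyltransferase, differed from control by −0.83 in mtYAP and by −0.54 in YAP, and Mat1a, the form of the liver, read under 3 on every array. Azin2, a second antizyme inhibitor, averaged 5.25 in mtYAP, 5.56 in YAP and 6.06 in control, differences of −0.81 and −0.50. Over its 3 probe sets the differences ran from −1.11 to −0.43 in mtYAP and from −0.77 to −0.04 in YAP. The brightest probe set, at −1.11, passed the limit in mtYAP. Agmat, an agmatinase, stayed below a level of 5 at 0.83 and 0.62.

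**Figure D4:**
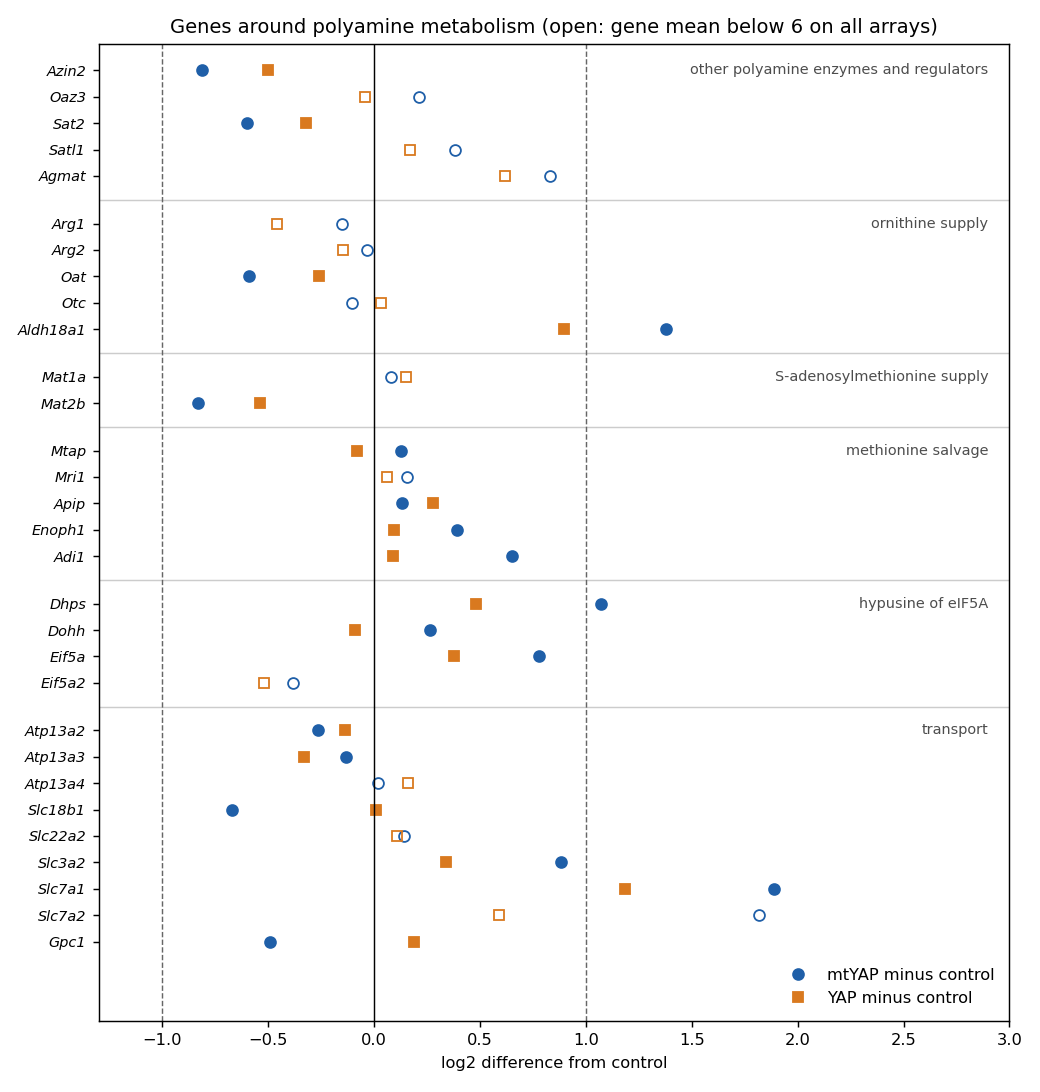
Log2 difference from control (horizontal axis) of 30 genes around polyamine metabolism, by role, in mtYAP (blue circles) and YAP (orange squares), with open symbols for genes whose mean stayed below a level of 6 and dashed lines at 1 and −1. Slc7a1 lies beyond 1 in both lines (1.89 and 1.18), Slc7a2, Aldh18a1 and Dhps only in mtYAP, and no gene lies below −1.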

How the data were processed

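Total RNA of NIH3T3 cells was hybridized as biotin-labelled cRNA to Affymetrix GeneChip Mouse Genome arrays, 1 array for each of 3 conditions, and their number limits the precision. The deposited values are log2 levels per probe set, background-subtracted and normalized by the authors with the robust multiarray analysis method in R (RMA and affy in the submitters' processing notes, versions not given in the sources used here). They are rounded to 2 decimals and were used as they stand. Gene names came from GEO's annotation of the array, in which 34945 of 45037 have 1 gene symbol, 932 several and 9160 none. Entrez identifiers were checked against RefSeq of GRCm38.p6 (18032 symbols found, 162 not, none changed). Levels of the probe sets naming a gene alone were averaged and subtracted between arrays, and genes above 1 or below −1 were counted without a test. The counting was run on simulated data with little noise and planted differences well past the limit. This checks the code only and gives no rate of false calls for these arrays. The members and lists were chosen with earlier results of these data known. Named are the members, in each wider list the called genes and up to 2 more that differ most from control in mtYAP, the context genes Yap1, Myc and Mycn, and the 5 genes nearest to Odc1 and to Srm. A comparison of protein sequences was planned and not made. Alternatives were the brightest probe set of each gene, the median of probe sets, any probe set passing, leaving out probe sets marked _s, _x or _a, keeping those that name several genes, a level of 6, removal of the median difference or of a loess on the level (span 0.3), a limit of 0.72 and, added after seeing the data, only probe sets reaching 6. Python 3.11.15, numpy 2.4.6, pandas 2.3.3, statsmodels 0.14.6 and matplotlib 3.10.9 were used.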

Additional observations from a re-analysis of the deposited data

Results flagged for a closer look

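By the mean over probe sets, Azin1 differed from control by 0.37 in mtYAP and by −0.24 in YAP, so the single array of each line lay on the opposite side of control. A difference at least as far from 0 was seen for 33.0% of all genes in mtYAP and for 37.7% in YAP. In YAP the difference was 0.03 by the median of the probe sets and −0.19 with only probe sets reaching 6. The difference between the lines was not tested.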

How the results depend on the processing

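No paired analysis was possible because there is 1 array per condition and the labels carry no replicate numbers. Levels below 6 and the single array limit every value. Of 126 values of single members under the alternatives, 122 stayed on the same side of the limit, and the other 4 are those of Smox, at −0.31 in mtYAP and −0.44 in YAP with the brightest probe set or with only probe sets reaching 6, an alternative added after seeing the data. The members below −1 were then 0 in mtYAP and 0 in YAP. Some of the 126 values could not change. Srm and Sat1 have 1 probe set each, so the choice among probe sets returned the same value, and the median difference removed was 0.0 for mtYAP minus control. The tally is therefore no measure of how firm these values are. Without probe sets marked _s, _x or _a, Odc1, Srm and Oaz1 have no probe set left, so 0 members lay above 1 in mtYAP, in YAP and in mtYAP against YAP. The values lost in this way are not among the 126. With a limit of 0.72, 2 members (Odc1 and Srm) passed upward in YAP and 2 in mtYAP against YAP. Over the alternatives Odc1 stood between 2.43 and 2.72 in mtYAP and 1.29 and 1.49 in YAP, and Srm between 1.72 and 1.75 in mtYAP and 0.84 and 0.89 in YAP. Among all genes, 686 lay above 1 and 739 below −1 in mtYAP, 247 and 229 in YAP and 136 and 259 in mtYAP against YAP. With a limit of 0.72 these counts were 1246 and 1301, 536 and 456, and 381 and 583, and with any probe set passing 1088 and 1147, 436 and 375, and 260 and 443. Every other alternative kept each of these counts within 1.5 times.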
